A study of Mus musculus with 4 samples.

Results

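The acyl-CoA thioesterases described here are the 10 genes Acot1, Acot2, Acot3, Acot4, Acot7, Acot8, Acot9, Acot11, Acot12 and Acot13, among 20145 genes named on the array. They were chosen as a gene family and because Acot1 differed between AP-treated and vehicle-treated mice on these same arrays. The differences of family members between these groups are therefore given as a description, with no test. The 10 genes were measured by 12 of 55681 probes. The other 3 Acot genes of the mouse, Acot5, Acot6 and Acot10, are set beside them.

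BAT was taken from male Tg mice that were 8 weeks old and had received AP20187 (AP) or its vehicle intraperitoneally 12 h earlier. The mice were on a C57/BL6N background. There were 2 mice in each group, and the RNA of each mouse was hybridized to its own single-color SurePrint G3 Mouse array. All 4 mice carried maP2::Fv2E-PERK, in which the mouse aP2 (Fabp4) promoter drives the kinase domain of PERK fused to a domain that AP dimerizes, so that AP induces phosphorylation of eIF2α and the integrated stress response (ISR). The promoter is active in white and brown adipocytes and also in macrophages, so BAT holds more than 1 cell type that can respond. The labels give an AP dose of 1 ng/g and the text of the study a higher one. No array of AP-treated mice without the transgene was analysed here. In whole tissue, fewer cells of a type and less RNA per cell cannot be told apart.

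Acyl-CoA thioesterases hydrolyze fatty acyl-CoA to free fatty acid and CoA, the opposite of the step that acyl-CoA synthetases catalyze. They are thought to set how much acyl-CoA and free CoA each compartment of the cell holds. In brown fat, fatty acids are the main fuel of heat production. The type I enzymes, Acot1 to Acot6, share an α/β-hydrolase fold, whereas the type II enzymes, Acot7 to Acot13, share the hotdog fold. Several type I genes, Acot1 among them, are classical targets of the fatty acid receptor PPARα.

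The 6 type I genes lie side by side on mouse chromosome 12, in the order Acot2, Acot1, Acot4, Acot3, Acot5 and Acot6, with 1 lncRNA gene and 1 pseudogene between them (RefSeq, GRCm38.p6). The other 7 Acot genes lie on chromosomes 2, 4, 13, 15 and X. The 250 bases upstream of the start of Acot2, Acot1, Acot4 and Acot5 are shown because these were the cluster genes with a signal on all 4 arrays, and all 4 were higher with AP. They are from RefSeq on GRCm38.p6, 5′ to 3′, with capitals at each match to the nuclear receptor half-site AGGTCA on either strand.
Acot2, chr12:83987611-83987860, plus strand: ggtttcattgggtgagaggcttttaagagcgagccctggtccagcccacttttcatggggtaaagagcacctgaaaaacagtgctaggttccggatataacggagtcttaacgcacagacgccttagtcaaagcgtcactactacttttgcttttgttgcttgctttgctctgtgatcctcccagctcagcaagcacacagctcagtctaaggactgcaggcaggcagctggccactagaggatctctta
Acot1, chr12:84009252-84009501, plus strand: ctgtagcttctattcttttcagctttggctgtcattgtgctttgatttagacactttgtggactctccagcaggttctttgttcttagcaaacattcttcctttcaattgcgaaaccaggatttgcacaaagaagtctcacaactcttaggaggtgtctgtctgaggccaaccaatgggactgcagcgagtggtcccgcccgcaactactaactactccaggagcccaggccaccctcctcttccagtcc
Acot4, chr12:84038129-84038378, plus strand: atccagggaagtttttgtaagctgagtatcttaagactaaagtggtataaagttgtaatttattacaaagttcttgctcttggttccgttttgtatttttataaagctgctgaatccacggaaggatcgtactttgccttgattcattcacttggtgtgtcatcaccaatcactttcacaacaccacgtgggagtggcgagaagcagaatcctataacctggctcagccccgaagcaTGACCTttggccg
Acot5, chr12:84069074-84069323, plus strand: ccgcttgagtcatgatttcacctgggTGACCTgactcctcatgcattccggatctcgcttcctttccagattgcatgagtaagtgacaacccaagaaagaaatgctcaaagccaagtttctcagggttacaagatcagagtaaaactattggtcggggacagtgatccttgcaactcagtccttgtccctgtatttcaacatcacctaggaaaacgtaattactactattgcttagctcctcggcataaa
The half-site was found upstream of Acot4 and Acot5, and also of Acot12. It is in 14% of all 32851 promoter windows of this length. The longer PPAR element DR1, here 2 half-sites of the looser form AGGNCA with 1 base between them, is in 0.338% of windows and had 0 matches in the 14 windows of the 11 Acot genes with a promoter entry. So had TTNCATCA, a core of the element that ATF4 binds with C/EBP factors, which is in 3.45% of windows. Both strands were searched, and no match says only that these letters are not in these windows. Probe sequences were not used here, so whether a probe of 1 cluster gene also bound transcripts of its neighbors was not tested.

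The signal of each probe is given as log2 of the processed intensity minus the 75th percentile of its array, so 0 is the 75th percentile and a difference of 1 is a 2-fold change. It sets mice against each other for the same probe, not genes against each other. On the 4 arrays, 46.4 to 49.0% of spots were well above background and 0 were saturated. The comparison took in 24973 probes, those well above background throughout at least 1 group. With limma, 0 probes (0% of those compared) had a Benjamini-Hochberg adjusted p under 0.05, whereas 1515 (6.07%) had an unadjusted p under 0.05, 3.30% higher and 2.77% lower with AP. An exact two-sided permutation test of 2 against 2 mice cannot give a p below 0.333. The known ISR gene Trib3, a pseudokinase that restrains insulin signaling, was at 6.26 and 8.01 with AP and at 2.78 and 2.33 with the vehicle.

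Vehicle replicate 2 stood apart from the other mice in its marker genes. All 10 leukocyte markers measured were highest on this array at the probe that stood for the gene. Their summed signal there (in units of the 75th percentile) was 176.4, against 59.8 in vehicle replicate 1 and 66.8 to 70.9 with AP. A dimmer probe of Csf1r (A_55_P2025073) was nearly level, at -0.39 and -0.35 with the vehicle and at -0.33 and -0.30 with AP. Of 14 leukocyte markers listed, 10 passed the filter, and Cd68 had no named probe. Of 10 white adipocyte markers, 6 were measured and 4 of them were highest in vehicle replicate 2, with a summed signal of 91.8 against 55.6 in vehicle replicate 1 and 44.9 to 45.8 with AP. The markers Hoxc8, Hoxc9, Hoxc10 and Tcf21 did not pass the filter, as their probes were not well above background in any mouse. All 10 skeletal muscle markers were also highest there and lowest in their summed signal in vehicle replicate 1, with both AP-treated mice in between. Their summed signal was 45.7 in vehicle replicate 1, 863.5 in vehicle replicate 2, 538.6 in AP replicate 1 and 288.1 in AP replicate 2. All 10 brown adipocyte markers were measured, with Ucp1 between 9.66 and 10.4 in the 4 mice. Elovl3 and Dio2 varied far more. Elovl3, a fatty acid elongase, was at 6.08 and -1.07 with the vehicle and at 3.52 and 5.76 with AP, so it was lowest in vehicle replicate 2, as Acot1 was. Dio2, the deiodinase that activates thyroid hormone, was at 0.49 and 1.53 with the vehicle and at -1.78 and 3.33 with AP. The summed signal of these 10 was 7527 and 4967 with the vehicle and 6063 and 6962 with AP. The part of these other cell types in the differences was not tested.

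**Figure D1:**
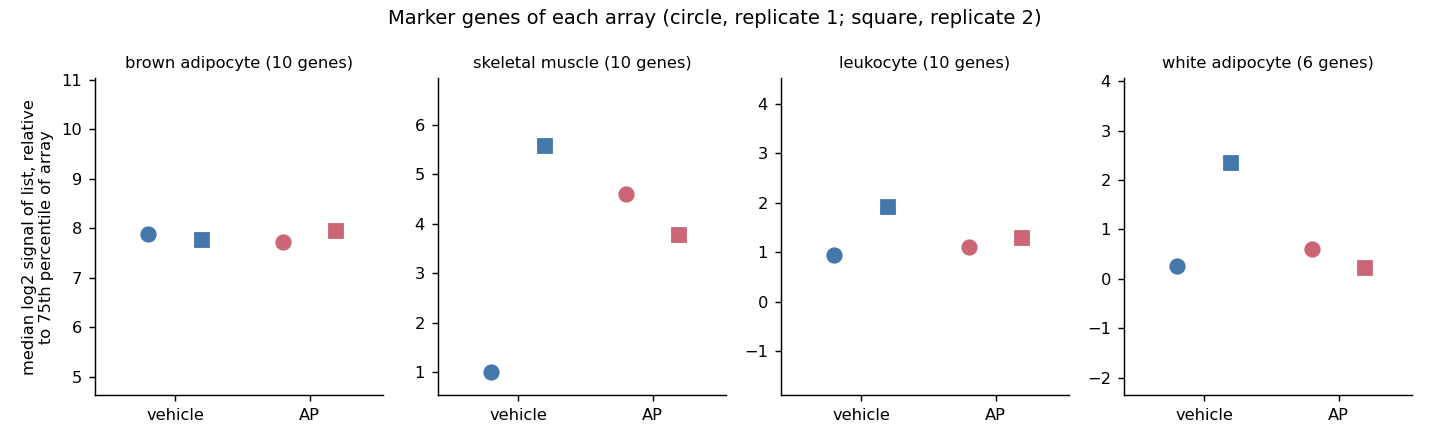
Median log2 signal of 4 lists of marker genes on each array, minus that array's 75th percentile (vehicle in blue, AP in red; circle, replicate 1; square, replicate 2), on axes of the same span. Vehicle replicate 2 is the highest array for muscle, leukocyte and white adipocyte markers, and the brown adipocyte medians lie between 7.73 and 7.95.

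Acot1, the cytosolic type I enzyme of long-chain acyl-CoA, had the largest difference of the family. Its probe (A_55_P2038358) was at -0.075 in vehicle replicate 1, -2.98 in vehicle replicate 2, 2.69 in AP replicate 1 and 0.23 in AP replicate 2. The groups did not overlap, but the lower AP mouse exceeded the higher vehicle mouse by only 0.30. Vehicle replicate 2 was lower than vehicle replicate 1 by 2.91, and the 2 AP-treated mice were spread by an SD of 1.74 around their mean of 1.46. The mean difference was 2.98 (standard error 1.28), or 7.91-fold, which was number 12 by size of rise among all probes compared. It was 1.53 without vehicle replicate 2 and 1.75 without AP replicate 1, but 4.44 without vehicle replicate 1 and 4.22 without AP replicate 2. The direction could not change with a mouse left out, because the groups did not overlap. The size ranged from 1.53 to 4.44.

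Acot2 encodes the mitochondrial counterpart of Acot1 and is its neighbor in the cluster. Its signal was 1.17 and -0.12 with the vehicle and 1.74 and 2.05 with AP. The AP-treated mice were 0.32 apart, and the groups did not overlap. The difference was 1.37 (standard error 0.48), or 2.59-fold, and 0.73 without vehicle replicate 2.

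Acot4, a peroxisomal enzyme that hydrolyzes succinyl-CoA and other dicarboxylic acyl-CoA in mice, was at -1.43 and -3.05 with the vehicle and at -1.19 and -0.51 with AP. The groups did not overlap, but AP replicate 1 was only 0.24 above vehicle replicate 1. The difference was 1.39 (standard error 0.61), or 2.62-fold, and 0.58 without vehicle replicate 2.

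Acot3, a peroxisomal enzyme of long-chain acyl-CoA, had a signal on 1 array only. The brighter of its 2 probes (A_55_P2038347) was well above background only in vehicle replicate 2, at -1.87, against -4.84 in vehicle replicate 1, -4.68 in AP replicate 1 and -4.82 in AP replicate 2. This was also the array with the lowest Acot1, Acot2 and Acot4. The second probe was well above background on 0 arrays, so no direction is given. Acot3 did not pass the filter and was not compared, and a count over the 9 genes that passed is not a count over all 10.

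The remaining cluster genes were higher with AP in both mice. Acot5, a peroxisomal enzyme of medium-chain acyl-CoA, was at -2.82 and -3.73 with the vehicle and at -1.30 and -1.95 with AP (probe A_55_P2038362). The difference was 1.65 (standard error 0.42), and 1.20 without vehicle replicate 2. A second probe of Acot5 (A_55_P2040260) did not overlap between the groups either, but its difference was only 0.50. Acot6, also peroxisomal, was not well above background in either vehicle-treated mouse, at -4.75 and -3.80, and was at -2.60 and -2.27 with AP. Each vehicle array was then counted at its lowest signal well above background, or at the probe's own signal if that was higher. On this count Acot6 was 2.53-fold higher with AP. With normexp background correction its difference was only 0.41 on the log2 scale, so 2.53-fold is not a lower limit under each setting. Acot6 passed the filter only through the AP group. Acot6 was higher in vehicle replicate 2 than in vehicle replicate 1, the opposite order to Acot1, Acot2, Acot4 and Acot5, and its measured difference of 1.84 was 2.32 without vehicle replicate 2.

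**Figure D2:**
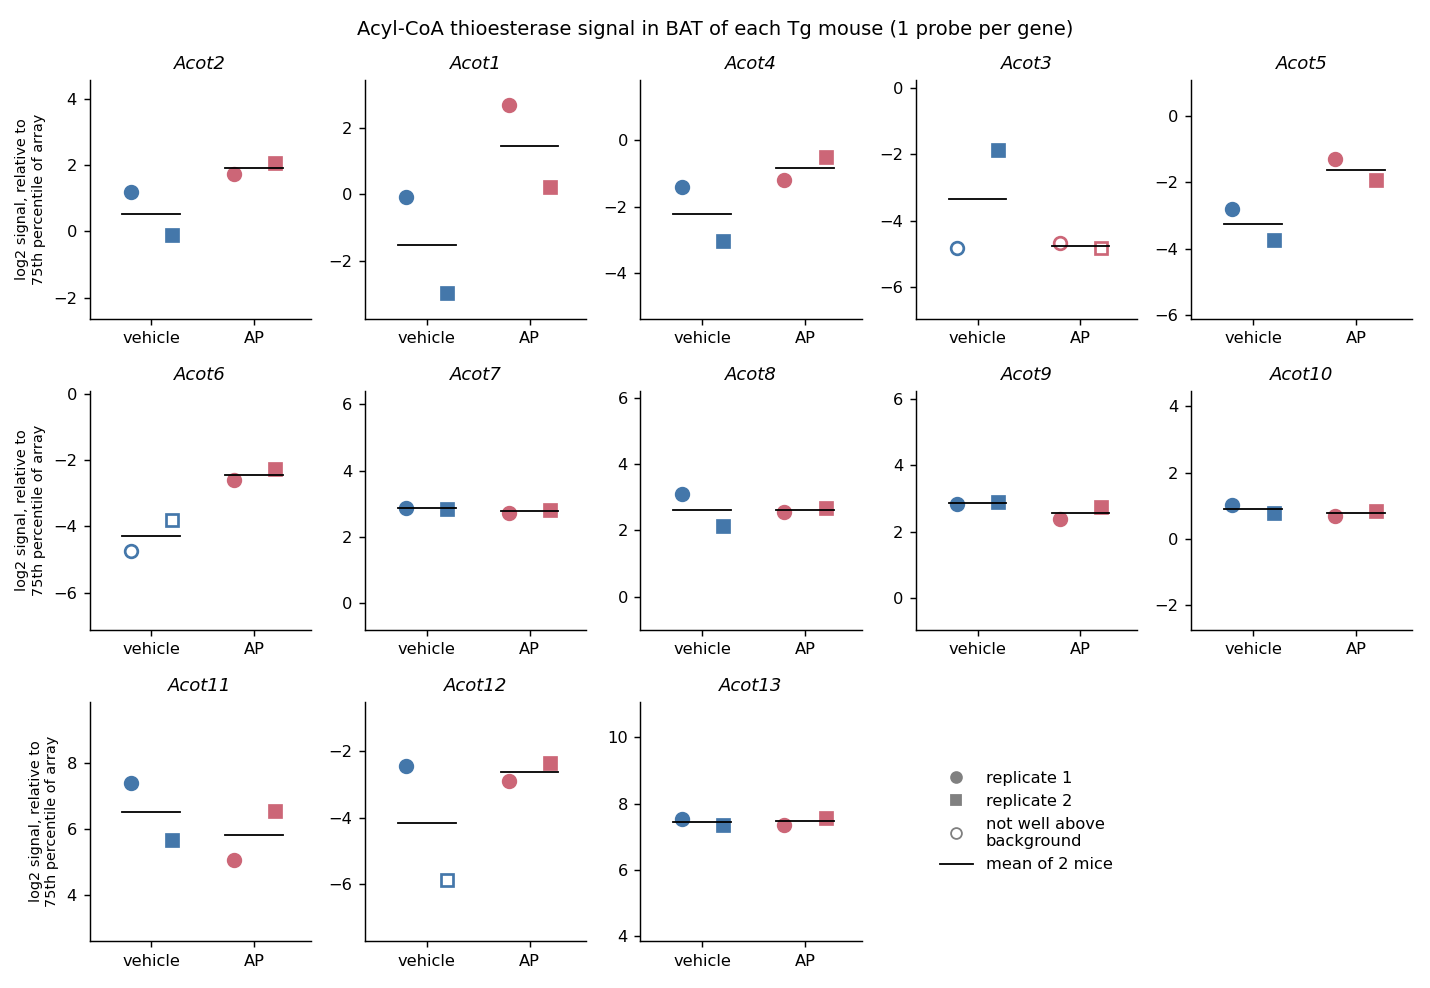
Log2 signal of each Acot gene in each mouse, minus that array's 75th percentile, 1 probe per gene, with every panel spanning the same range (circle, replicate 1; square, replicate 2; open symbols, not well above background; line, mean of 2 mice). Acot1 to Acot6 come first in their order on chromosome 12. In all of these but Acot3 the AP group lies wholly above the vehicle group, against 18.0% of all probes compared. The family was chosen for Acot1, and Acot6 passed the filter only through the AP group.

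The type II genes showed no such pattern. Acot7, a cytosolic enzyme known best from brain, was at 2.89 and 2.84 with the vehicle and at 2.72 and 2.82 with AP. The AP group lay wholly below the vehicle group, by a mean of only 0.091 (standard error 0.20). Acot9, a mitochondrial enzyme, was at 2.84 and 2.90 with the vehicle and at 2.39 and 2.75 with AP. It was also lower in both AP-treated mice, with a difference of -0.30 (standard error 0.23). With a mouse left out, the difference ran from -0.14 to -0.041 for Acot7 and from -0.48 to -0.12 for Acot9. Neither sign could change, because the groups did not overlap. With the median of each array subtracted instead, the difference of Acot7 was -0.0064.

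Acot8, a peroxisomal enzyme of broad specificity, was at 3.08 and 2.12 with the vehicle and at 2.55 and 2.67 with AP. The AP-treated mice lay between the vehicle-treated mice, and the difference was 0.0071 (standard error 0.38). Leaving out vehicle replicate 2 gave -0.47, and leaving out vehicle replicate 1 gave 0.49. A second probe gave -0.075. Acot13, also called Them2, is a long-chain enzyme found at mitochondria, and was at 7.53 and 7.34 with the vehicle and at 7.34 and 7.58 with AP. Its difference was 0.022 (standard error 0.22), and its groups overlapped. The mitochondrial gene Acot10 overlapped too, with a difference of -0.12 (standard error 0.22).

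Acot11, also called Them1, is induced in brown fat by cold and is known to restrain energy expenditure there. It was at 7.39 and 5.66 with the vehicle and at 5.07 and 6.55 with AP. The groups overlapped, and the mice within a group were 1.73 and 1.49 apart, more than the difference between the groups. The difference was -0.72 (standard error 0.78), and it depended on single mice. It was -1.58 without vehicle replicate 2 and -1.46 without AP replicate 2, but 0.14 without vehicle replicate 1 and 0.025 without AP replicate 1.

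Acot12, a cytosolic acetyl-CoA hydrolase known best from liver, was at -2.44 in vehicle replicate 1 and at -2.90 and -2.35 with AP. In vehicle replicate 2 it was not well above background, at -5.88. The gene passed the filter only through the AP group, and its difference of 1.54 (standard error 1.17) rested on that array, since it was -0.19 without vehicle replicate 2. With normexp background correction and all mice it was 0.36.

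**Figure D3:**
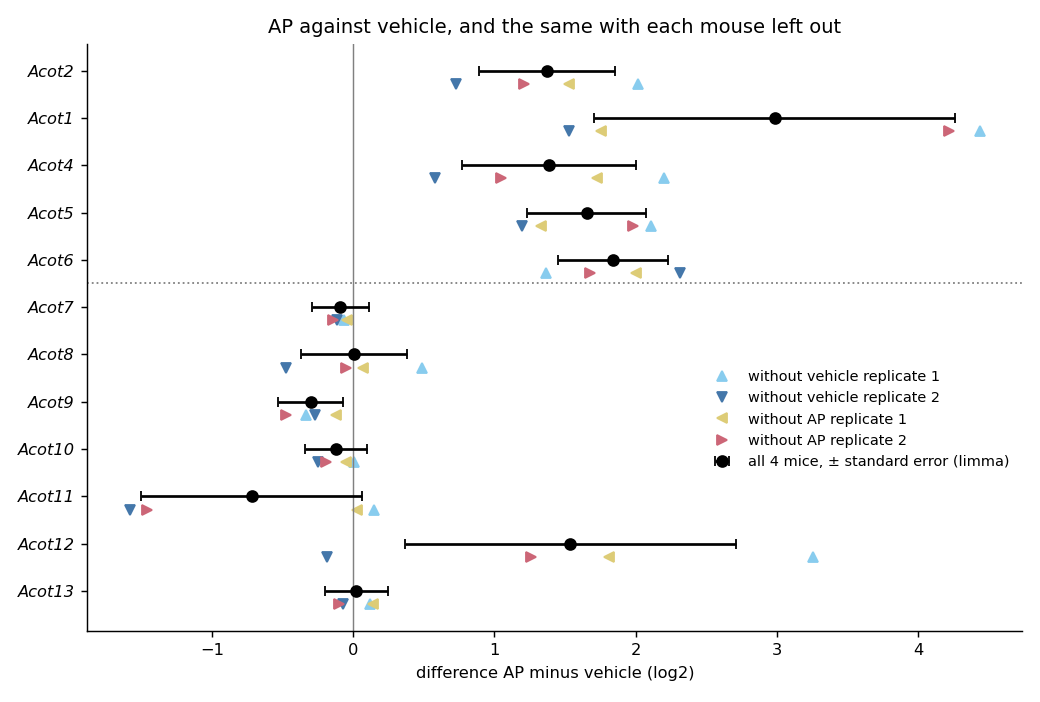
Difference between AP and vehicle on the log2 scale for the 12 Acot genes that passed the filter, with the standard error of limma (black) and the value with each mouse left out (triangles); the dotted line separates the chromosome 12 cluster from the other genes. The 5 cluster genes stay above 0 with any mouse left out, as they must where the groups do not overlap. Acot8, Acot10, Acot11, Acot12 and Acot13 cross 0.

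Of the 9 family members that passed the filter, 6 had a positive difference and 3 a negative one, with a median of 0.022. Over all probes compared, 48.6% were above 0 and the median was -0.012. The split was 5 of 9 positive with quantile normalization and 4 of 9 with normexp background correction. It was 3 of 8 with the authors' log2 table, in which the median of all probes was -0.17, Acot8 and Acot13 turned negative and Acot12 had no value. The groups did not overlap for 5 members, where 38.3% of all probes did not overlap. AP was the higher group for Acot1, Acot2 and Acot4, against 18.0% of all probes, and the lower one for Acot7 and Acot9, against 20.4%. At least 2-fold apart were Acot1, Acot2, Acot4 and Acot12, against 4.32% of all probes. All 4 were higher with AP, against 2.32%, but Acot12 passed only through the AP group and gave -0.19 without vehicle replicate 2. These comparisons were used to choose the family, so nothing is read from the shares. Without vehicle replicate 2, 3 of 9 members were higher. These were Acot1, Acot2 and Acot4, whose sign could not change because their groups did not overlap.

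Grouped by position, after the values had been seen, 5 of the 6 genes of the chromosome 12 cluster passed the filter, Acot6 only through the AP group, and Acot1 is the gene the family was chosen for. Their differences ran from 1.37 to 2.98, and without vehicle replicate 2 from 0.58 to 2.32. Of the 7 Acot genes elsewhere, 3 were above 0 and 4 below. The AP group lay wholly above the vehicle group in 0 of these genes, against 18.0% of all probes. It lay wholly below in 2, against 20.4%. The differences of these 7 genes ran from -0.72 to 1.54 with a median of -0.091. Of the 5 cluster genes, 4 were lowest in vehicle replicate 2, as were 2 of the 7 others. The share of all probes lowest on that array was not counted, so nothing is read from these counts. The family members thus shared neither 1 direction nor 1 size of difference.

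The genes whose pattern over the 4 arrays was nearest to Acot1 were taken by the root mean square difference of log2 signals, each gene centered on its own mean, among 12137 other genes well above background on all arrays. The nearest was Slc25a34, a mitochondrial carrier, at a distance of 0.53, with 1.61 and -0.017 under the vehicle and 4.37 and 2.53 under AP. In Slc25a34, as in Acot1, AP replicate 1 was the highest mouse and vehicle replicate 2 the lowest. Next came Zmynd12 (0.83), the cytochrome P450 gene Cyp2b9 (0.93), Myrip (0.97) and the secreted phospholipase gene Pla2g2e (1.02). This order rests on 4 arrays.

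Other genes of acyl-CoA handling were read from the same fit in 5 lists. Of 11 other CoA and acyl thioester hydrolases, 9 were measured, 5 of them higher and 4 lower, with a median of 0.028 against 0.011 over all genes. Acot5 and Acot6 were the 2 genes of this list with an unadjusted limma p under 0.05, both higher, where 3.30% of all probes were higher with such a p, but Acot6 entered the comparison only through the AP group, where it was high. Their adjusted p was 0.80 (limma). Of 18 acyl-CoA synthetases, which catalyze the opposite reaction, 15 were measured, 9 higher and 6 lower, with a median of 0.11. In this list 1 gene had an unadjusted limma p under 0.05 and was higher, Slc27a2, a very long-chain acyl-CoA synthetase and fatty acid transporter. Slc27a2 was at 4.43 and 3.77 with the vehicle and at 6.30 and 5.08 with AP, a difference of 1.59 (standard error 0.50, adjusted p = 0.80 with limma).

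With the authors' log2 table the median of the other hydrolases was -0.13 and that of the synthetases -0.055. The median over all probes was lower in that table too, at -0.17 against -0.012. The sign of neither list median held under each scaling, but a sign there depends on how the arrays are centered.

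Of 6 acyl-CoA binding proteins, which carry acyl-CoA in the cell, 5 were measured, 2 higher and 3 lower. Their median was -0.15 against 0.011 over all genes, and -0.35 without vehicle replicate 2. In all 5 the groups overlapped at the probe that stood for the gene, where 38.3% of all probes did not overlap. The largest rise was that of Acbd5 (0.24, standard error 0.25, and 0.47 without overlap at a dimmer probe) and the largest fall that of Acbd6 (-0.27, standard error 0.30), both within 1 standard error of 0. Across the alternatives that kept all mice the median of the list ran from -0.31 to 0.015.

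PPARα target genes other than the thioesterases act in fatty acid oxidation, ketone body synthesis and lipid storage. Of 27 listed, 25 were measured, 20 higher and 5 lower with AP, with a median of 0.28, where 51.4% of all genes were above 0. In 4 of the 25 the AP group lay wholly above the vehicle group, where 18.0% of all probes had this order. In 1 it lay wholly below, against 20.4% of all probes. Without vehicle replicate 2 the median was -0.060. Vnn1, a pantetheinase that breaks down a product of CoA degradation, was the 1 gene of the 25 with an unadjusted limma p under 0.05, where 6.07% of all probes had one. It was at -2.02 and -2.004 with the vehicle and at -0.44 and -1.07 with AP, a difference of 1.26 (standard error 0.29, adjusted p = 0.80 with limma). Its vehicle-treated mice were nearly equal.

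Of 9 PPAR receptors and partners, 8 were measured and 7 of these were higher, with a median of 0.23. In 4 genes the AP group lay wholly above the vehicle group, against 18.0% of all probes, and 0 had an unadjusted limma p under 0.05, against 6.07%. The largest rise was that of the fatty acid receptor gene Ppard (0.47, standard error 0.23), and the 1 fall was that of the coactivator gene Ppargc1b (-0.0055, standard error 0.39). Ppara itself was at 5.49 and 6.51 with the vehicle and at 6.82 and 5.64 with AP, so its groups overlapped, and its difference was 0.23 (standard error 0.55).

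**Figure D4:**
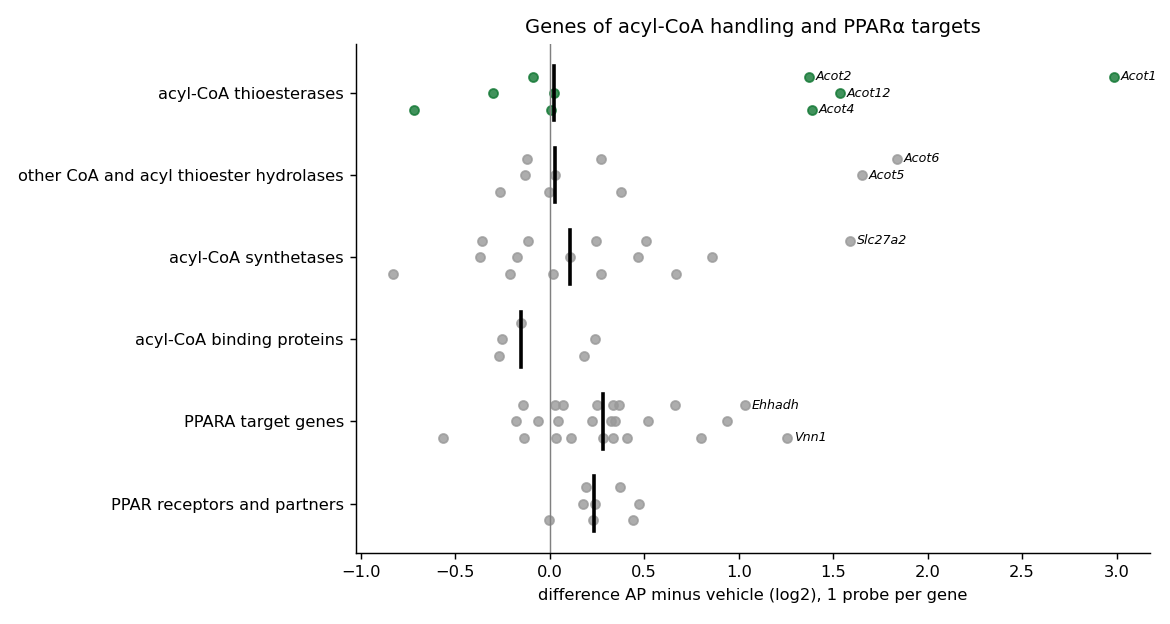
Difference between AP and vehicle on the log2 scale for each measured gene of the family (green) and of 5 lists of related genes (gray), 1 probe per gene, with the median of each list as a black line and genes at least 2-fold different named. The family runs from -0.72 to 2.98, with Acot1, the gene it was chosen for, at the upper end and a median of 0.022.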

How the data were processed

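Total RNA of BAT was labeled with Cy3 and hybridized to SurePrint G3 Mouse arrays, and the authors extracted the scans with Agilent Feature Extraction 10.7.1.1, a version credited to the submitters' processing notes. The authors deposited a background-subtracted, linear intensity for every spot, which had not been normalized across arrays. They also deposited a table of log2 values of the same arrays, whose centering and normalization are not stated. Its array differences correlated with those used here at Pearson's r = 0.9998 or more over 24868 probes, and its column medians were -0.28, -0.16, -0.44 and -0.29 in vehicle replicates 1 and 2 and AP replicates 1 and 2.

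Control spots and outlier spots were left out, spots of a probe were averaged as log2, and the 75th percentile of each array's spots was subtracted (118.9, 158.7, 127.6 and 118.5 in the same order). Probes well above background in both mice of 1 group were kept, and AP was set against vehicle in limma 3.58.1 (lmFit, eBayes; R 4.3.3). Of 55681 probes, 26582 were named by accession through a RefSeq table of GRCm38.p6, used for names, gene order and promoters only, since the array was designed on another build. The kept probe with the highest mean signal stood for a gene. Members, gene lists and tests were chosen with earlier results of these data known. The text names all Acot genes, list genes with an unadjusted p under 0.05 or else the largest rise and fall, and the 5 genes nearest to Acot1. Ppara was added because the list is named for it, and marker genes follow the lists. The following settings were varied: background (normexp, offset 50), scaling (quantile, array median), the filter on dim probes, the trend of the variance, the source of the values (the authors' log2 table), a replicate block, the mice included, the test (the methods' t-test) and averaging over a gene's probes. All arrays shared 1 slide and 1 scan, so neither could be a block.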

Additional observations from a re-analysis of the deposited data

How the results depend on the processing

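Under each of 11 alternatives that kept all mice, and with each mouse left out, 0 probes were under an adjusted p of 0.05 (limma, or the methods' t-test). At an unadjusted p under 0.05 there were 1226 to 2610 probes under these alternatives and 1003 to 2178 with a mouse left out. The fit that leaves a lone mouse in a group takes it to vary like the other group. With all mice kept, the difference of Acot1 ran from 2.06 (normexp) to 3.07, that of Acot2 from 1.20 to 1.46 and that of Acot4 from 0.63 (normexp) to 1.47. Under normexp, which shrinks dim probes, Acot5 was 0.62 and Acot6 0.41, and with the mean of both probes Acot5 was 1.08. With a mouse left out, Acot1 ran from 1.53 to 4.44. With a mouse left out, Acot12 ran from -0.19 to 3.26, turning negative without vehicle replicate 2, where its probe was not well above background. In the values of the authors the median over all probes was -0.17, against -0.012. There, 3 of 8 members with a value were above 0, against 6 of 9: Acot12 had no value, and Acot8 (-0.15) and Acot13 (-0.14) turned by about that shift. The members above 0 ranged from 3 to 7 with a mouse left out. The median of PPAR receptors and partners was 0.070 with these values and 0.13 to 0.41 with a mouse left out. That of PPARα targets was -0.060 to 0.57, that of acyl-CoA synthetases 0.015 to 0.52 and that of other hydrolases -0.078 to 0.34 with a mouse left out. What caused these shifts was not tested. Mice of equal number were not paired, since the replicate numbers are not stated to pair them. Their deviations from the group means had a correlation of -0.13 over probes. With 2 mice in each group, pairing unequal numbers only turns its sign, so it cannot show a pairing. A replicate block left every difference as it was, such as 2.98 for Acot1, and 0 probes passed, as with the crossed pairing, which was chosen after seeing the data. No block for slide or scan could be fitted.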
